A study of Mus musculus with 8 samples.

Results

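The red cell membrane and its cytoskeleton were followed through 8 genes, Slc4a1, Epb42, Rhag, Sptb, Ank1, Epb41, Add2 and Smim1, which were taken by gene name from the 55422 genes and other features counted in every cell. Each of the 8 names belonged to 1 feature, so no member was lost or split. Levels are given as CPM, the unique molecular identifiers (UMIs, 1 for each captured RNA molecule) of a gene per 1000000 UMIs of the cells summed.

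The study asked what cells without the TET enzymes, which oxidise methylated cytosine and so start its removal, can become in the mouse embryo. Embryonic stem cells lacking all 3 Tet genes (Tet-TKO, background C57BL/6J-129Sv, marked with tdTomato) were injected into wild-type C57BL/6J blastocysts, and the chimaeric embryos were pooled and sorted by tdTomato into Tet-TKO and WT host cells. The cells were profiled by 3′ single-cell RNA-seq, with 4 Tet-TKO and 2 WT host libraries at embryonic day 8.5 (E8.5) and 1 library of each genotype at E7.5. All libraries came from chimaeric embryos, and the WT host cells were neither injected nor of mixed background, so genotype, injection and strain cannot be told apart. The labels number the E8.5 libraries but do not say that they came from separate embryo pools, so p-values measure the spread between libraries, which may be technical.

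The red cell keeps its shape because a mesh of spectrin and short actin filaments lies under the lipid bilayer and is tied to proteins that cross it. The anion exchanger band 3 (Slc4a1) is the main anchor in the bilayer. Ankyrin-1 (Ank1) and protein 4.2 (Epb42) join band 3 to beta-spectrin (Sptb). Protein 4.1 (Epb41) and beta-adducin (Add2) hold spectrin to actin. The Rh-associated glycoprotein (Rhag) sits with band 3 in the same complex, and Smim1 is the small membrane protein that carries the Vel blood group. Inherited defects of several of these proteins cause spherocytosis or elliptocytosis. In the embryo the first red cells, the primitive erythroid cells, arise in the yolk sac from mesoderm by way of haematoendothelial and blood progenitors.

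The members are spread over 7 chromosomes of GRCm38 in the GENCODE annotation. Slc4a1 lies on chr11:102348824-102366203 (ENSMUSG00000006574), Epb42 on chr2:121017891-121037072 (ENSMUSG00000023216), Rhag on chr17:40811126-40840754 (ENSMUSG00000023926) and Sptb on chr12:76580488-76710547 (ENSMUSG00000021061). Ank1 lies on chr8:22974844-23150497 (ENSMUSG00000031543), Epb41 on chr4:131923413-132075321 (ENSMUSG00000028906), Add2 on chr6:86028681-86124409 (ENSMUSG00000030000) and Smim1 on chr4:154020470-154026230 (ENSMUSG00000078350).

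RefSeq start sites were matched for 6 of the 8 members, with 3 start sites for Epb41. The sequences before the start are shown for the 5 members with 1 start site. GATA1 and KLF1, factors that drive red cell genes, bind such regions, and their part in the members' values was not tested. Capitals mark the letters GATAA (or TTATC on the other strand), read by GATA factors, and CACCC (or GGGTG), the core of the CACC box. All are from GRCm38.p6, written 5′ to 3′ on the strand of the gene, and stop at the first base that GENCODE counts as transcribed.
Rhag, chr17:40810899-40811125, plus strand: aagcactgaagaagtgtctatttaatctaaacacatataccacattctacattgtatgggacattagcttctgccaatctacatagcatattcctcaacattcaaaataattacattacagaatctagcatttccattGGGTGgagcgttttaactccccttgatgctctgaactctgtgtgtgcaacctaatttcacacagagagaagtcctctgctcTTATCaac
Epb42, chr2:121037073-121037127, minus strand: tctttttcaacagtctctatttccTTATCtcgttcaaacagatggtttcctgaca
Smim1, chr4:154026231-154026294, minus strand: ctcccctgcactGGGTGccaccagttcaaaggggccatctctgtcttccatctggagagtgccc
Sptb, chr12:76710548-76710797, minus strand: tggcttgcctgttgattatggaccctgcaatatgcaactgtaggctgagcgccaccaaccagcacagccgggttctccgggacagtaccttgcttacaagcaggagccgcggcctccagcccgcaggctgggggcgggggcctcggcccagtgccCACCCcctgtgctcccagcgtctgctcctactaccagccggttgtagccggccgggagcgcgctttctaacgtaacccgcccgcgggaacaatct
Add2, chr6:86028431-86028680, plus strand: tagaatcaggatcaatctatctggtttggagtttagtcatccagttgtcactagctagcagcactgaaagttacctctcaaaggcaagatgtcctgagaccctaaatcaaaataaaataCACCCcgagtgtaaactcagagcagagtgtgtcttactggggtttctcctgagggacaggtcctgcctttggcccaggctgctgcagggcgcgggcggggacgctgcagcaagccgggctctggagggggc

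In the 250 bases before the RefSeq start, Rhag held 1 GATA match, 31 bases before the start, and 1 CACC match. Epb42 held 1 GATA match, 226 bases before the start, and Sptb, Add2 and Smim1 held 1 CACC match each. None of the 3 Epb41 windows held either motif. A match is a run of letters and not a bound site, and such matches are common, at 22.6% of the 32851 RefSeq promoter windows for GATA and 52.0% for CACC. The windows also differed in CpG, the dinucleotide on which TET enzymes act. Rhag had 1 CpG, Epb42 2, Add2 6, Smim1 9 and Sptb 18, while the Epb41 windows had 2, 15 and 28, against a median of 6 over all windows. In its own methylation data, the paper found promoters low in methylation in both genotypes and TET-dependent loss at distal elements. The methylation of the windows given here was not tested.

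After removal of poor cells the E8.5 libraries held 1008 to 9545 cells, with a median of 12178 to 68931 UMIs per cell, and Tet-TKO libraries 3 and 4 were the smallest and the deepest per cell. By their summed counts the Tet-TKO libraries formed 2 like pairs, 1 with 2 and 3 with 4 (chi-square per degree of freedom 17.7 and 20.4, against 162 for the 2 WT host libraries). Any pair of libraries shared at most 28 cell barcodes. A tdTomato UMI was found in 60.8% to 87.3% of E8.5 Tet-TKO cells and in 0.569% and 0.841% of E8.5 WT host cells. Transcripts of Tet1, Tet2 and Tet3 are given as a check of the labels. In Tet-TKO and WT host libraries Tet1 stood at 9.92 to 20.9 and 20.4 to 22.6 CPM, Tet2 at 5.55 to 10.5 and 4.63 to 4.67 CPM, and Tet3 at 22.5 to 37.5 and 23.1 to 23.2 CPM. Reads from the 3′ end of a transcript need not cover an edited exon, so these values do not test the knockout.

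In whole E8.5 libraries 7 of the 8 members were lower in all 4 Tet-TKO libraries than in both WT host libraries, and 5 of the 8 fell past the threshold (adjusted p under 0.01 and an absolute log2 fold change of at least 1, edgeR quasi-likelihood test with Benjamini-Hochberg adjustment over 21074 genes). Over all genes tested, 17.9% were lower in every Tet-TKO library and 23% higher, and 2.05% were called lower and 0.588% higher. An unadjusted p under 0.05 was found for 7 of the 8 members and for 26.7% of all genes. The median log2 fold change of the members was -3.66 against 0.02 over all genes. In a sum over all cells, fewer red cells and less RNA per red cell cannot be told apart.

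Band 3, the anion exchanger, was at 1.06 CPM or less in Tet-TKO libraries. Slc4a1 stood at 0.01, 0.20, 1.06 and 0.09 CPM in Tet-TKO libraries 1 to 4 and at 9.33 and 41.9 CPM in WT host libraries 1 and 2. The ranges did not overlap, but the WT host libraries themselves differed widely, and the log2 fold change of -6.39 (SE 1.15) missed the threshold (adjusted p = 0.0178). Rhag, the channel-like partner of band 3, stood at 0.02, 0.09, 0.41 and 0.12 CPM in Tet-TKO and at 2.51 and 6.43 CPM in WT host libraries. It too was lower in every Tet-TKO library and missed the threshold (log2 fold change -4.96, SE 0.80, adjusted p = 0.0124).

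Transcripts of the proteins that link band 3 to spectrin fell. Epb42 stood at 0.52, 0.89, 1.30 and 0.54 CPM in Tet-TKO and at 7.02 and 11.9 CPM in WT host libraries. All Tet-TKO values lay below the WT host values, and the fall was called (log2 fold change -3.63, SE 0.39, adjusted p = 0.00354). Ank1, the ankyrin, stood at 0.12, 0.19, 0.89 and 0.51 CPM against 6.91 and 11.1 CPM. This was a log2 fold change of -4.58 (SE 0.65, adjusted p = 0.00897), close to the threshold.

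The spectrin-actin mesh split by member. Sptb, beta-spectrin, stood at 2.78, 2.66, 3.54 and 3.71 CPM in Tet-TKO and at 9.53 and 16.0 CPM in WT host libraries, and fell by 2.11 on the log2 scale (SE 0.22, adjusted p = 0.00326). Add2, which caps actin filaments and brings spectrin to them, stood at 0.75, 1.24, 1.78 and 0.92 CPM against 10.5 and 17.7 CPM. Its log2 fold change of -3.69 (SE 0.34, adjusted p = 0.00237) had no overlap between the genotypes. Epb41, the protein 4.1 gene, was the member whose ranges overlapped. It stood at 33.6, 36.8, 75.1 and 77.8 CPM in Tet-TKO and at 44.2 and 57.8 CPM in WT host libraries. Tet-TKO libraries 1 and 2 were below both WT host libraries and libraries 3 and 4 above both, and the log2 fold change was 0.01 (SE 0.33, adjusted p = 0.987).

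Smim1, the Vel blood group gene, had 38.6 ± 4.09 CPM in Tet-TKO (SD, n = 4) and 168 ± 38.8 CPM in WT host libraries (SD, n = 2). The single libraries stood at 38.6, 43.5, 38.8 and 33.5 CPM in Tet-TKO and at 141 and 195 CPM in WT host. The Tet-TKO libraries lay close together and far below the WT host libraries (log2 fold change -2.20, SE 0.19, adjusted p = 0.00186).

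How many members were called depended on single libraries. It was 3 without Tet-TKO library 1, 2 without Tet-TKO library 2, 4 without either Tet-TKO library 3 or 4, 3 without WT host library 1 and 1 without WT host library 2, and Smim1 was among the called members each time. Without a WT host library the remaining one is taken to vary as the Tet-TKO libraries do, here and in the other tests that leave one out. With the like Tet-TKO libraries summed in pairs, none was called, in a test of 2 against 2. DESeq2 called 7. In none of these alternative fits was the share of all genes called counted, so their member counts have no background beside them.

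**Figure D1:**
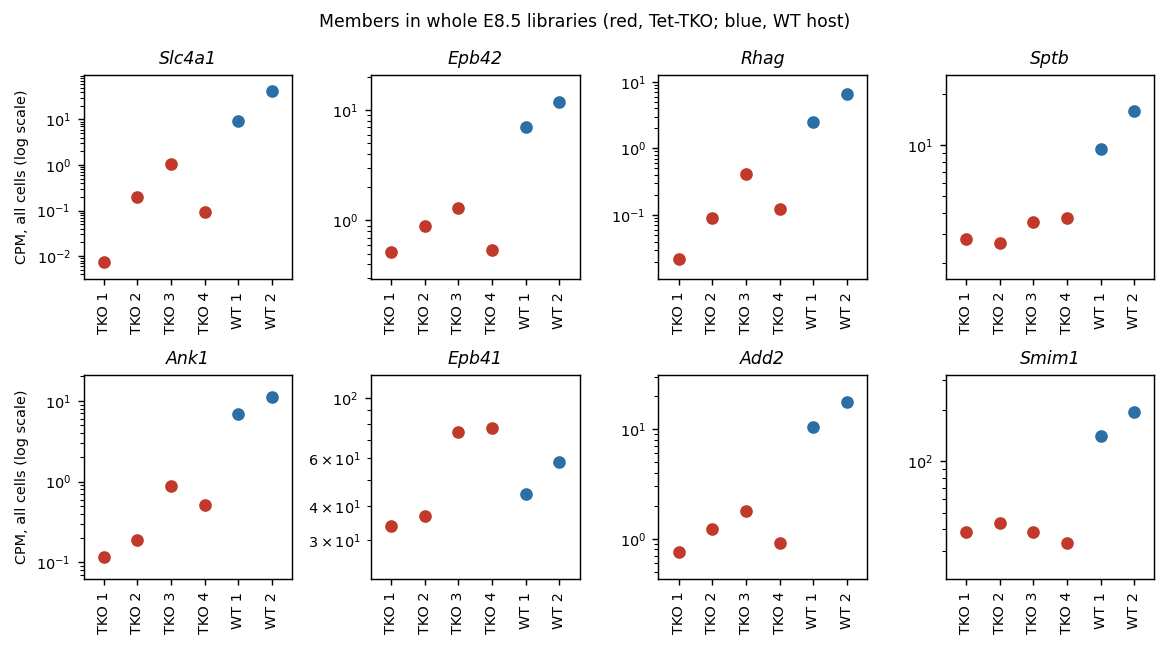
CPM of each member over all cells of an E8.5 library (log axis), with 1 point per library, red for the 4 Tet-TKO and blue for the 2 WT host libraries. The Tet-TKO points lie below the WT host points for 7 of the 8 members, and for Epb41 they lie on both sides.

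The members' UMIs were then traced to cell groups, which were made by clustering without the members and named from fixed markers. In WT host libraries most UMIs of 7 members came from erythroid-like cells, from 72.7% (Smim1) to 93.6% (Slc4a1) in library 1 and from 84.2% (Sptb) to 95.0% (Slc4a1) in library 2. Epb41 was the exception at 31.4% and 41.4%. Per cell group, the level of Slc4a1 was 61.7 and 46.3 times that of all other cells in WT host libraries 1 and 2, that of Add2 35.3 and 31.5 times, that of Smim1 11.2 and 13.7 times, and that of Epb41 1.93 and 1.71 times. Since the clusters were built on genes of these cells, these ratios are a description. The other cells include cluster 47, 34 and 51 WT host cells of low depth that stayed unnamed, in which 6 members had a higher mean than in erythroid-like cells, Slc4a1 at 72.1 and 310.1 CPM and Ank1 at 84.1 and 77.5 CPM among them. Erythroid-like cells made up 0.298% to 1.04% of E8.5 Tet-TKO cells, 150 cells in all, and 15.3% and 24.1% of WT host cells, 3435 in all. These shares leave out cluster 46, also unnamed for low depth, in which the erythroid list came first. It held 29, 21, 25 and 56 cells of Tet-TKO libraries 1 to 4 and 70 and 121 WT host cells. In Tet-TKO libraries 11.3% to 52.4% of the Epb42 UMIs came from erythroid-like cells and 45.2% to 70.4% from blood progenitor-like cells. For Smim1 the same shares were 4.59% to 18.3% and 22.9% to 39.9%.

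**Figure D2:**
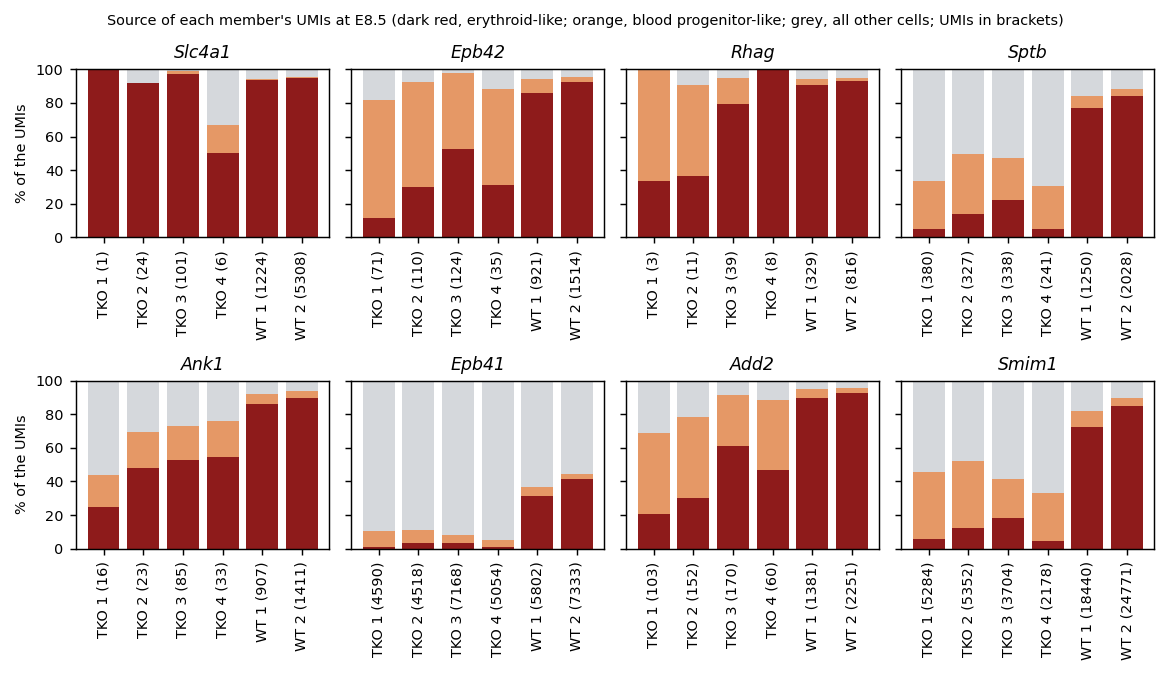
Share of each member's UMIs (in percent, with the number of UMIs in brackets) from erythroid-like cells in dark red, blood progenitor-like cells in orange and all other cells in grey, for the 6 E8.5 libraries. Dark red fills most of both WT host bars except for Epb41, where it reaches 31.4% and 41.4%.

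Before the level within erythroid-like cells is compared, the make-up of these cells has to be given, since it differed between the genotypes. The Tet-TKO cells were mostly in clusters 44 and 45 and the WT host cells mostly in clusters 48 and 45. Of the 457 cells of cluster 44, 96.1% were called doublets, 2 cells caught in 1 droplet. Doublets made up 54.2%, 48.5% and 20.8% of the erythroid-like cells of Tet-TKO libraries 1 to 3 against 12.8% and 10.8% in WT host libraries. The number called in a library was set by its size, taking the highest doublet scores. Over all cells the called share was 5.63%, 7.64% and 1.82% in these Tet-TKO and 6.61% and 7.23% in WT host libraries. Haemoglobin took 1.91%, 4.11% and 6.27% of the UMIs in Tet-TKO and 9.27% and 15.4% in WT host erythroid-like cells. A tdTomato UMI was found in 18 of 24, 41 of 99, 13 of 24 and 0 of 3 erythroid-like cells of Tet-TKO libraries 1 to 4, and 23 Tet-TKO cells had a tdTomato UMI and were not called doublets. All 12 erythroid markers were above 0 in every library tested, with a summed level of 19366 to 63048 CPM in Tet-TKO and 94273 to 155683 CPM in WT host. Brain and spinal cord markers summed to 71.8 to 123 CPM against 27.4 to 32.8 CPM. Megakaryocyte markers summed to 26.2 to 57.8 CPM against 6.19 to 9.0 CPM, but the higher Tet-TKO sums came from fewer markers. Of the 8 on that list, Tet-TKO library 1 had 3 above 0, while Tet-TKO library 2 and Tet-TKO library 3 had 5 each. WT host library 1 had 6 above 0 and WT host library 2 had 7. Blood progenitor markers were lower in Tet-TKO, at 475 to 599 CPM against 834 to 954 CPM, as were cardiomyocyte markers, at 15.6 to 27.1 CPM against 51.6 to 72.4 CPM. The part of these cells in the members' values was not tested.

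Within these erythroid-like cells none of the 8 members passed both thresholds (3 Tet-TKO libraries against 2 WT host, since Tet-TKO library 4 held 3 such cells and was left out). Of the 8422 genes tested, 0.76% were called lower and 2.17% higher in Tet-TKO, and 3 members had an unadjusted p under 0.05, as did 27.9% of all genes. Every Tet-TKO library was below both WT host libraries for 2 members, Smim1 and Ank1, and for 7.65% of all genes, while 38.4% of all genes were above both in every Tet-TKO library and no member was. DESeq2 called 0 too. Smim1 stood at 356, 362 and 422 CPM in Tet-TKO and at 531 and 567 CPM in WT host cells. All Tet-TKO values were lower, with a log2 fold change of -0.75 (SE 0.12, adjusted p = 0.0091) that was short of the fold required. Ank1 stood at 4.92, 5.94 and 28.1 CPM against 30.9 and 34.2 CPM, again without overlap (log2 fold change -1.44, SE 0.45, adjusted p = 0.0796).

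The other 6 members overlapped between the genotypes. Slc4a1 stood at 1.23, 11.9 and 61.1 CPM in Tet-TKO and at 45.4 and 136 CPM in WT host erythroid-like cells, so that Tet-TKO library 3 lay above WT host library 1 (log2 fold change -1.96, SE 0.75, adjusted p = 0.134). Rhag stood at 1.23, 2.16 and 19.3 CPM against 11.8 and 20.5 CPM. In both genes library 3 was far above the other Tet-TKO libraries. The log2 fold changes of Epb42, Sptb and Add2 were -0.72, -0.57 and -0.63, with adjusted p of 0.234, 0.201 and 0.263 (edgeR). Epb41 had 0.10 (adjusted p = 0.855). Without Tet-TKO library 3 there were 3 calls, Epb42, Ank1 and Add2, all lower, and with the replicate number as a block 6. Whether the shared numbers are pairs could not be decided. The share of all genes called was not counted in either fit, so these calls have no background beside them.

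With called doublets removed, the log2 fold changes of 7 members lay closer to 0, and that of Epb41 was 0.43. The test then held 11, 51 and 19 Tet-TKO cells and 1099 and 1941 WT host cells. Of the Tet-TKO cells, 7, 8 and 8 had a tdTomato UMI, and whether the others were Tet-TKO cells was not tested. No member was called, while 35 of 6671 genes were called lower and 38 higher. Smim1 stood at 691, 535 and 504 CPM in Tet-TKO and at 576 and 611 CPM in WT host cells (log2 fold change -0.23, adjusted p = 0.465). Tet-TKO library 1 then held the highest Smim1 level, where it had held the lowest. Ank1 stood at 11.7, 11.4 and 32.0 CPM against 33.1 and 36.4 CPM (log2 fold change -0.85, adjusted p = 0.172), and remained lower in each Tet-TKO library. Add2 had a log2 fold change of -0.06, Epb42 of -0.12, Sptb of -0.13, Rhag of -0.32 and Slc4a1 of -1.12, with adjusted p from 0.381 to 0.910. In cluster 45 alone, chosen after seeing the data, 0 members were called and Ank1 was the 1 member with a log2 fold change below 0 (-0.58), while Smim1 had 0.12 and was above both WT host libraries in Tet-TKO libraries 1 to 3. In cluster 44 alone, chosen in the same way, Ank1 was called lower, at 1.68 and 1.84 CPM (1 and 2 UMIs) in Tet-TKO libraries 1 and 2 and at 19.6 and 20.6 CPM in WT host cells. Slc4a1 stood there at 0 and 2.76 CPM (0 and 3 UMIs) against 24.6 and 77.9 CPM, and Smim1 at 217 and 228 CPM against 308 and 313 CPM. In Tet-TKO library 2 a tdTomato UMI was found in 7 of 49 cells of cluster 45 and in 33 of 45 cells of cluster 44.

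With cells matched to their sort by tdTomato, the log2 fold changes of the 7 members other than Epb41 lay further below 0. The test then held the 18, 41 and 13 Tet-TKO cells with a tdTomato UMI, of which 12, 33 and 6 lay in cluster 44, the cluster of called doublets. Smim1 stood at 291, 287 and 372 CPM in Tet-TKO and at 531 and 567 CPM in WT host cells, and its fall was called (log2 fold change -1.04, adjusted p = 0.00166). Slc4a1 stood at 0, 8.46 and 38.1 CPM against 45.4 and 136 CPM, so that the genotypes no longer overlapped (log2 fold change -2.62, adjusted p = 0.0370), and Ank1 at 6.17, 1.06 and 23.2 CPM against 30.9 and 34.1 CPM (-1.80, adjusted p = 0.0311). Removing called doublets and keeping tdTomato cells thus moved the log2 fold changes of Smim1, Ank1 and Slc4a1 in opposite directions. In the settings of this and the preceding paragraph, the share of all genes without overlap was not counted. The share of all genes called was not counted either, except with called doublets removed.

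**Figure D3:**
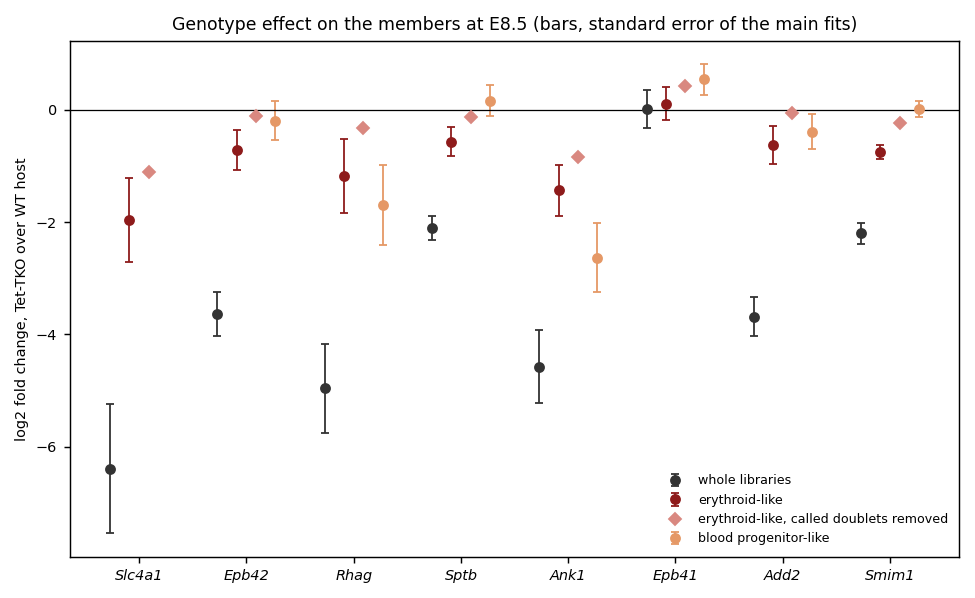
Log2 fold change of each member, Tet-TKO over WT host, in whole libraries (black), erythroid-like cells (dark red), erythroid-like cells without called doublets (pink diamonds, no error drawn) and blood progenitor-like cells (orange); bars are standard errors. The whole-library values run down to -6.39, and the values without called doublets lie between -1.12 and 0.43.

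Blood progenitor-like cells were found in both genotypes at overlapping shares, 1.69% to 3.14% of Tet-TKO and 1.76% to 2.56% of WT host cells at E8.5. A tdTomato UMI was found in 145 of 221, 118 of 283, 29 of 39 and 17 of 18 of these cells in Tet-TKO libraries 1 to 4. In naming, the blood progenitor list came first for this cluster (mean log2 fold over other cells 2.41) and the megakaryocyte list second (1.31). The extent of the group depended on the clustering, with 931 cells here, 1859 at a resolution of 1 and 823 without correction between libraries, and no cluster took the name when all variable genes were used, where an unnamed cluster of 995 cells stood in. Of the 7 members tested there, 0 were called by edgeR or DESeq2 (0.475% of 9473 genes lower and 0.327% higher), and 2 had an unadjusted p under 0.05, Ank1 and Rhag, as did 13% of all genes. Ank1 stood at 0.55, 1.14, 8.5 and 4.26 CPM in Tet-TKO and at 14.2 and 18.9 CPM in WT host cells. Every Tet-TKO library was lower (log2 fold change -2.64, SE 0.62, adjusted p = 0.0606), and without Tet-TKO library 3 the fall was called (-3.56, adjusted p = 0.00837). Removing called doublets left it at -2.63 (adjusted p = 0.0599), but without the correction between libraries in clustering it was -0.16. Rhag stood at 0.37, 1.37, 3.0 and 0 CPM against 2.94 and 4.20 CPM (log2 fold change -1.70, adjusted p = 0.344). Rhag in Tet-TKO library 3 lay just above WT host library 1. Slc4a1 was removed by the filter on low counts, at 0 to 1.00 CPM (3 UMIs in all) in Tet-TKO and 1.71 and 4.20 CPM (19 UMIs) in WT host cells, and was called lower with Ank1 when no filter was used. In the fits without Tet-TKO library 3 or without the filter, the share of all genes called was not counted. Slc4a1 and Ank1 were the members below both WT host libraries in every Tet-TKO library, as were 12.1% of all genes tested, while 14.4% were above.

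Like Rhag, the other 5 members overlapped between the genotypes in blood progenitor-like cells. Smim1 stood at 386, 488, 424 and 375 CPM in Tet-TKO and at 420 and 389 CPM in WT host cells, with a log2 fold change of 0.01 (SE 0.14). Epb42 had -0.20 (SE 0.35), Sptb 0.16 (SE 0.28), Add2 -0.39 (SE 0.31) and Epb41 0.54 (SE 0.27). Myeloid markers summed to 1.37 to 2.50 CPM in Tet-TKO and 17.1 to 20.6 CPM in WT host progenitor-like cells, and cardiomyocyte markers to 12.2 to 24.5 CPM against 99.6 to 113 CPM. The blood progenitor markers that name the group summed to 715 to 853 CPM against 965 to 1076 CPM, and haematoendothelial markers to 489 to 639 CPM against 689 to 707 CPM. Erythroid markers summed to 11771 to 28752 CPM in Tet-TKO and 23976 to 40961 CPM in WT host progenitor-like cells, so their ranges overlapped. Their part in these values, those of Ank1 and Rhag included, was not tested.

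**Figure D4:**
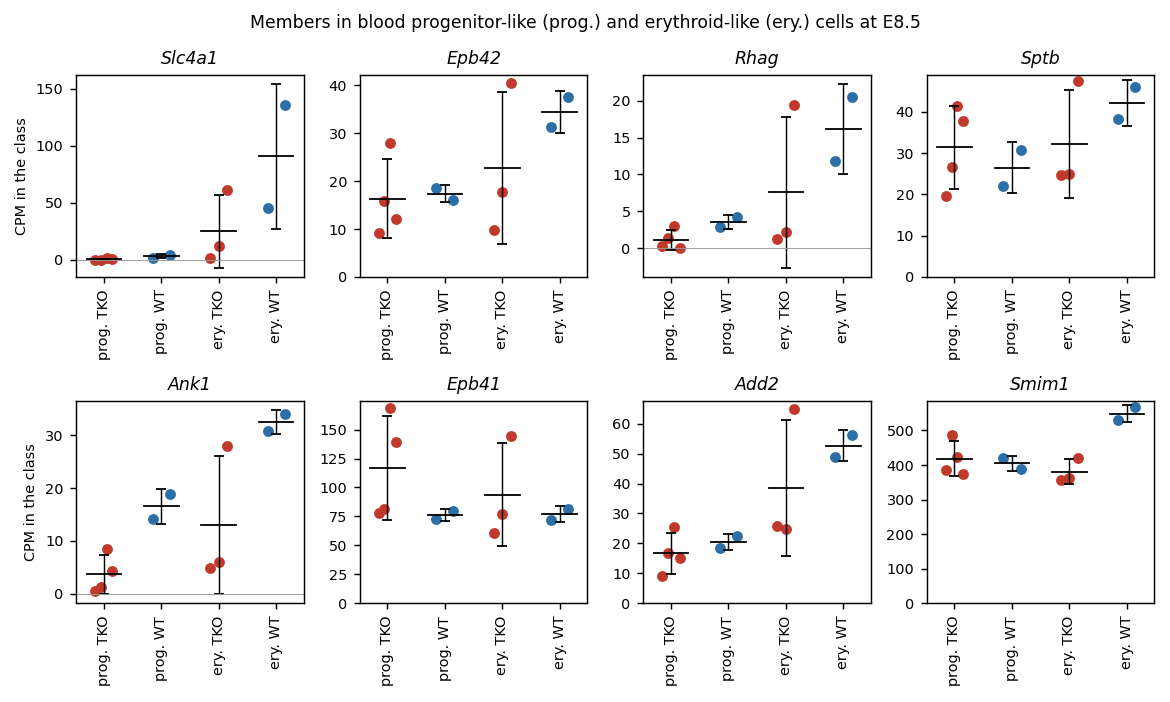
CPM of each member in blood progenitor-like (prog.) and erythroid-like (ery.) cells at E8.5, 1 point per library with at least 10 such cells, with the mean as a line and the SD as the bar. Ank1 is lower in each Tet-TKO library in both groups, and Smim1 lies lower in Tet-TKO erythroid-like cells (356 to 422 against 531 to 567 CPM) while its ranges overlap in progenitor-like cells.

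The genotype effect was compared between the 2 cell groups by an interaction term with library as a block. It was more negative in erythroid-like than in progenitor-like cells for Smim1 (difference in log2 fold change -0.82, SE 0.12, adjusted p = 8.05e-05) and Sptb (-0.75, SE 0.20, adjusted p = 0.0275), the 2 of 8 members past an adjusted p of 0.05, where 1.59% of 10381 genes were more negative and 2.88% more positive. With called doublets removed, the differences were -0.38 for Smim1 (adjusted p = 0.0754) and -0.42 for Sptb (adjusted p = 0.561), and 0 members passed. That fit held 11, 51 and 19 Tet-TKO erythroid-like cells, of which 7, 8 and 8 had a tdTomato UMI. Sptb also missed the threshold without Tet-TKO library 2 (adjusted p = 0.219), WT host library 1 (0.228) or WT host library 2 (0.141). Ank1 had a difference of 0.86 (adjusted p = 0.220), so its lower level was not shown to differ between the groups. In cluster 37, whose leading genes include Etv2 and Kdr of haematoendothelial progenitors, and in endothelium-like cells, Epb41 and Smim1 alone passed the filter and neither was called (0.272% and 0.92% of genes lower, 0.166% and 0.282% higher). The log2 fold change of Smim1 was 0.82 in cluster 37 (adjusted p = 0.493) and -1.15 in endothelium-like cells (adjusted p = 0.219). The difference between these groups was not tested.

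WT host cells gave the course of the members in normal primitive blood. At E7.5, with 1 library per genotype and so no test, 429 WT host erythroid-like cells held 0 UMIs of Slc4a1 and of Rhag, which allows up to 0.432 CPM (3 counts, counting error only). The same cells had 12.3 CPM of Epb42 (95% exact Poisson interval 9.79 to 15.1), 17.9 CPM of Sptb (14.9 to 21.3), 3.17 CPM of Ank1 (1.99 to 4.80) and 1.15 CPM of Add2 (0.498 to 2.27). Epb41 was at 77.5 CPM and Smim1 at 139 CPM. Haemoglobin took 0.207% of the UMIs of these E7.5 cells. At E8.5, in clusters 45 and 48 of WT host libraries 1 and 2, Slc4a1 stood at 11.8 and 42.4 CPM and then at 96.3 and 195 CPM. Haemoglobin took 7.14% and 10.3% of the UMIs in cluster 45 and 14.3% and 19.7% in cluster 48. Rhag stood at 7.96 and 12.9 CPM in cluster 45 and at 18.4 and 25.5 CPM in cluster 48, and Add2 at 43.1 and 52.6 CPM and at 66.8 and 63.9 CPM. Ank1 stood at 32.6 and 35.4 CPM and at 34.5 and 37.1 CPM, and Epb41 at 76.9 and 83.6 CPM and at 75 and 83.2 CPM, so that both were near level between these clusters. Slc4a1 and Rhag, the transporters of the membrane, were thus detected in WT host erythroid-like cells at E8.5 and not at E7.5. Epb42, Sptb, Epb41 and Smim1 were already present at E7.5, as were Ank1 and Add2 at 3.17 and 1.15 CPM.

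**Figure D5:**
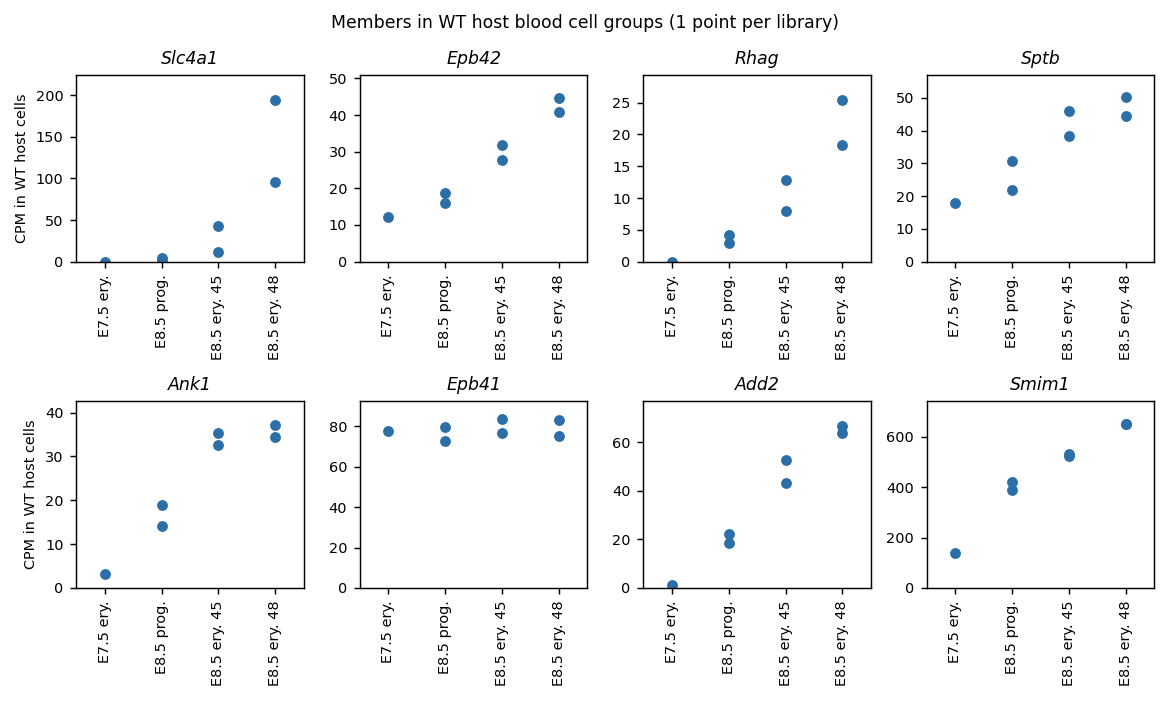
CPM of each member in WT host erythroid-like cells at E7.5 (1 library) and in blood progenitor-like cells and erythroid clusters 45 and 48 at E8.5 (2 libraries), 1 point per library. Slc4a1 runs from 0 at E7.5 to 96.3 and 195 CPM in cluster 48, while Epb41 stays between 72.7 and 83.6 CPM.

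The E7.5 Tet-TKO library held 7 erythroid-like cells (0.127% of its cells) against 429 (6.01%) in WT host, too few to compare levels, since 0 UMIs there allow up to 24.0 CPM. Over all E7.5 cells, Epb42 was at 0.0190 CPM (2 UMIs) in Tet-TKO and 0.898 CPM (93 UMIs) in WT host, and Ank1 at 0.0190 CPM (2 UMIs) and 0.367 CPM (38 UMIs). Sptb was at 1.62 and 1.78 CPM and Smim1 at 13.2 and 28.4 CPM.

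The share of erythroid-like cells with a UMI of a member depends on depth, so cells were thinned to 5000 UMIs. With Slc4a1, a UMI was then found in 0%, 7.87% and 21.7% of the cells of Tet-TKO libraries 1 to 3 and in 18.5% and 43.8% of WT host cells, against 0% and 1.05% of brain and spinal cord-like WT host cells, which should lack it. The unthinned Slc4a1 shares were 4.17%, 11.1%, 54.2%, 37.6% and 71.1%. With Ank1, the thinned shares were 8.33%, 4.49% and 13.0% in Tet-TKO and 14.4% and 17.3% in WT host cells. Brain and spinal cord-like cells of WT host libraries 1 and 2 held 0 and 3 Ank1 UMIs before thinning.

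Other red cell membrane genes were read from a list of 26. In whole libraries 12 of 26 were called lower and 0 higher (median log2 fold change -1.19), in erythroid-like cells 5 of 23 lower (median -0.71) and in progenitor-like cells 4 of 25 lower (median -0.27), where 2.05%, 0.76% and 0.475% of all genes were called lower. In erythroid-like cells the called genes were Rhd, the Rh blood group protein (-3.50), Tspan33 (-2.60), the potassium channel gene Kcnn4 (-2.14), Art4, which carries the Dombrock group (-1.92), and Dmtn, dematin, which bundles actin (-1.77). Rhd stood at 1.23 to 3.74 CPM in Tet-TKO and at 25.6 to 33.5 CPM in WT host cells. With called doublets removed, 2 of 23 were called, Rhd (-2.81, adjusted p = 0.00483) and Tspan33 (-1.83, adjusted p = 7.75e-05), against 0.525% of 6671 genes, and Kcnn4 (-1.36), Art4 (-1.33) and Dmtn (-0.99) were not. In progenitor-like cells Rhd (-4.48), Kcnn4 (-2.95), Tspan33 (-2.28) and Dmtn (-2.07) were called, so these 4 were called in both groups with doublets kept. Rhd stood there at 0 to 0.50 CPM in Tet-TKO, near the floor, and at 5.38 to 5.95 CPM in WT host cells. Actb, which encodes the actin of the mesh, had 0.05 in erythroid-like cells and was not called. Of the paralogs of members, a list that holds Add1, the partner of Add2 in the red cell mesh itself, 0 of 16, 0 of 9 and 0 of 8 were called in the 3 comparisons, with medians of 0.25, 0.44 and 0.38. Sptbn1, the spectrin of most other cells, had a log2 fold change of 1.17 in erythroid-like cells (adjusted p = 0.0181) and of 0.84 with called doublets removed (adjusted p = 0.179).

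Over 35 WT host cell groups at E8.5, the gene whose level followed a member most closely (Pearson r of log2(CPM + 1), a description over groups that share libraries) was Hbb-y for Slc4a1 (0.94), Trim10 for Epb42 (0.98), Ache for Sptb (0.91) and Ank1 (0.95) and Blvrb for Smim1 (0.90). For Rhag it was 6030468B19Rik (0.98) and for Epb41 C2cd5 (0.84). Between members, r ran from 0.72 to 0.94 among the 7 without Epb41 and from 0.24 to 0.64 between Epb41 and the others.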

How the data were processed

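Tet-TKO and WT host cells of chimaeric mouse embryos were profiled in 8 libraries of 10x 3′ RNA-seq. The authors aligned reads to mm10 and deposited UMI counts per gene and cell, which are raw counts; the header of the files names Cell Ranger 3.1.0. Every test here used these deposited counts. Cells under 1500 UMIs, or with over 30% of UMIs from mitochondrial or over 35% from ribosomal genes, were dropped, and the rest were clustered (scanpy 1.11.5; 2500 variable genes without members and lists; 50 components; mutual nearest neighbours between libraries; Leiden resolution 2) and named from marker lists. Clusters of low depth stayed unnamed. Called doublets were the cells with the highest Scrublet scores, in a number set by the size of each library, and were kept in the main fits. Counts were summed per library and group with at least 10 cells, and tested with edgeR 4.0.16 (R 4.3.3; TMM, filterByExpr, quasi-likelihood). Calls needed an adjusted p under 0.01 and an absolute log2 fold change of at least 1, interactions an adjusted p under 0.05. DESeq2 1.42.0 was an alternative. In simulated data the fits recovered 95.5% (whole libraries, 21074 genes), 99.5% (erythroid-like, 8422) and 100% (progenitor-like, 9473) of 4-fold changes. These changes were placed only in genes above the median count, and the likeness between Tet-TKO libraries was not simulated. The recovered shares thus say nothing of genes of low count. Kept UMIs per E8.5 library ran from 64958644 to 136734135. All 8 members were named in each comparison, with called list genes (at most 6) and the 2 highest uncalled ones. Some genes this rule names are not reported here. Members and lists were chosen with earlier results of these data known. Sequences are from RefSeq. Intervals cover counting error only.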

Additional observations from a re-analysis of the deposited data

Results flagged for a closer look

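The genotype effect on 2 members differed between erythroid-like and blood progenitor-like cells at E8.5 by the interaction test. The difference in log2 fold change was -0.75 for Sptb and -0.82 for Smim1. With called doublets removed it was -0.42 and -0.38 and missed the threshold for both. Among 16 groups of 4 libraries, 0 held a library far from the others, where chance gives about 1 in 20.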

How the results depend on the processing

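In whole libraries 5 members were called, 7 without a filter on low counts, with the replicate block, for cells matched by tdTomato or with DESeq2, 0 with the like Tet-TKO libraries summed in pairs, and 1 to 4 with a library left out. In erythroid-like cells, where 0 were called, there were 3 calls without a filter on low counts, 6 with the replicate block, and 1 each for cells matched by tdTomato (Smim1), clustering at resolution 1, uncorrected clustering, clustering on every variable gene, no minimum fold change and, chosen after seeing the data, shallow clusters included and cluster 44 alone. Leaving out a library gave 0 to 3. In blood progenitor-like cells, where 0 were called, there were 2 without the filter, 1 with the replicate block, and 0 to 1 with a library left out. Clustering on all variable genes left no cluster with the progenitor name, so an unnamed cluster of 995 cells stood in for that group in its values and in the interaction. For the interaction, where 2 members passed, 4 did without the filter, 1 with libraries summed in pairs, 1 with DESeq2, 4 for cells matched by tdTomato, 0 without called doublets, 5 at resolution 1, 7 with no correction, 6 with all variable genes, and 1 to 3 with a library left out. The cause of these changes was not tested. The share of all genes called was counted only for the main fits and for erythroid-like cells without called doublets.

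The direction reversed for Epb41 in whole libraries (0.01) without the filter (-0.0039), with the replicate block (-0.52), for cells matched by tdTomato (-0.014) and with a library left out (from -0.21 to 0.24). In erythroid-like cells Epb41 (0.10) reversed without the filter (-0.034), with the replicate block (-0.38), at resolution 1 (-0.12), with no correction (-0.27), all variable genes (-0.22) and cluster 44 alone (-0.10), and with a library left out (from -0.40 to 0.25). In cluster 45 alone Slc4a1 (0.33), Epb42 (0.46), Rhag (0.43), Sptb (0.12), Add2 (0.46) and Smim1 (0.12) reversed. In progenitor-like cells Epb42 reversed with no correction (0.27), all variable genes (0.067) and with a library left out (from -0.51 to 0.040), Sptb with the replicate block (-0.19), at resolution 1 (-0.25) and with a library left out (from -0.068 to 0.42), Add2 with no correction (1.08) and all variable genes (0.38), and Smim1 for cells matched by tdTomato (-0.0043), at resolution 1 (-0.25) and with a library left out (from -0.089 to 0.072).

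The labels' numbers 1 and 2 are shared by both genotypes. Deviations of same-numbered libraries correlated at 0.41 and -0.11 over 15312 genes. With 2 WT host libraries, the other pairing gives the same values with the sign turned, so this check cannot decide whether the numbers are pairs. The paper sorted pooled embryos into Tet-TKO and host tubes and compared each Tet-TKO sample with its matching host. The numbers were not taken as pairs in the main fits. Tet-TKO libraries 3 and 4 have no partner and add nothing to the block. A minimum of 30 cells was not run for erythroid-like cells or the interaction, since 1 Tet-TKO library would remain and 2 of each genotype were required, and no block was added to the interaction, where library is already a block. The 150 Tet-TKO erythroid-like cells limit every level within that group.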
